A study of Homo sapiens with 4 samples.

Results

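The Notch pathway in FaDu cells was followed through 10 genes, chosen by name: the ligand genes JAG1, JAG2 and DLL1, the receptor genes NOTCH1, NOTCH2 and NOTCH3, the co-activator MAML1, the targets HES1 and HEY1, and DTX1, a Deltex ubiquitin ligase. All 10 had a single row among the 25548 gene symbols of the table. FaDu is an established squamous carcinoma line of the hypopharynx. The first group was FaDu given Aza/TSA, that is 5 µM Aza (5-aza-2'-deoxycytidine) on days 1 to 3, a deoxycytidine analogue that removes DNA methylation by trapping the methyltransferases, and 100 nM TSA (trichostatin A, which blocks histone deacetylases) on day 3. The second was FaDu given vehicle, whose source label reads DMSO only and which by the protocol also means ethanol on day 3. Each group was 1 library of messenger RNA from 1 line, so no difference below has a replicate check or a p-value, and an effect of Aza cannot be told apart from one of TSA.

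Notch receptors are engaged by ligands on a neighbouring cell and are then cut, first by an ADAM protease and next by gamma-secretase, and the freed intracellular domain enters the nucleus. There it joins the DNA-binding protein RBPJ and a Mastermind-like co-activator and switches on repressor genes of the HES and HEY families. In stratified epithelium the pathway is known for driving basal keratinocytes into differentiation, and NOTCH1 is often inactivated by mutation in head and neck squamous carcinoma. Deltex proteins such as DTX1 bind the intracellular domain and alter the traffic and turnover of the receptor. DTX1 is included because it has been put forward as a tumour suppressor candidate silenced by methylation in this cancer.

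The promoters of HES1 and JAG1 are shown because both genes were lower after Aza/TSA and each illustrates a feature of the pathway or the treatment, the binding-site core of RBPJ in HES1 and CpG sites, where DNA can be methylated, in JAG1. Each runs 5′ to 3′ on the strand of the gene from 250 bases before its start to 50 after it (RefSeq, GRCh38.p14). In HES1, at chr3:194135898-194136197 on the plus strand, capitals mark the RBPJ core TGGGAA. In JAG1, at chr20:10673950-10674249 on the minus strand, capitals mark CpG dinucleotides.
HES1: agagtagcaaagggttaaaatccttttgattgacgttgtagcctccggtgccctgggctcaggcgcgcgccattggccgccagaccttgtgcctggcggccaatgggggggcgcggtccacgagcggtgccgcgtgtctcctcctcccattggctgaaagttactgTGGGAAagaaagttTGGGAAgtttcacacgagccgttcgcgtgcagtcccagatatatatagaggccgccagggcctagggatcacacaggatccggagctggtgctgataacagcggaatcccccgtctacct
JAG1: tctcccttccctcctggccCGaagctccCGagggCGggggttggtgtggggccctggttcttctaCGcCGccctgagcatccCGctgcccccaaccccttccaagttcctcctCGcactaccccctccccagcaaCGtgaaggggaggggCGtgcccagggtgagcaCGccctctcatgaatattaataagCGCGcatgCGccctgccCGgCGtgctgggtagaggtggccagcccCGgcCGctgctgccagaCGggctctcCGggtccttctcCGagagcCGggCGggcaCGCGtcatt
The core was searched as TGGGAA and its reverse complement TTCCCA. HES1 held 2 matches, beginning 84 and 70 bases before the start, and 3.80% of 35116 promoters of the same length held at least 2, while 24.0% held at least 1. The promoters of NOTCH1, NOTCH2, NOTCH3, JAG1, JAG2 and MAML1 held none. Of the 10 genes 7 were matched to a promoter, and DTX1, DLL1 and HEY1 were not. The 7 windows held 21 to 46 CpG, against a median of 14 over all promoters. HES1 had 21 CpG and JAG1 24, the fewest of the 7, and JAG2 had 46, the most. Whether the number of CpG goes with the change in level was not tested.

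Expression is in FPKM, fragments per kilobase of transcript and scaled to the mapped fragments, so levels can be set side by side between genes. The FPKM summed to 516692 in the Aza/TSA library and 491963 in the DMSO library, and the number of reads behind them is unknown. In the columns of UMSCC47, the second line of the table, values and row names were out of step. Of 25 housekeeping genes 4 and 8 reached 10 FPKM in the UMSCC47 Aza/TSA and DMSO columns, against all 25 in each FaDu column, so UMSCC47 gives no gene values here. The FaDu libraries carried squamous epithelial markers, with all 7 listed genes at 10 FPKM or more in both. Markers of other cell types were low: 6 fibroblast genes summed to 3.65 FPKM in the Aza/TSA library and 0.794 in the DMSO library, 5 leukocyte genes to 5.06 and 1.80, and 4 endothelial genes to 3.73 and 0.943. The leukocyte gene PTPRC was at 0.0385 FPKM after Aza/TSA and 0.0513 in DMSO. Of these 15 genes COL1A1, CD14 and CDH5 reached 1 FPKM after Aza/TSA, CD14 alone did so in DMSO, KDR was at 0 in both, CD79A was at 0 after Aza/TSA, and COL1A2, DCN, LUM, PDGFRB, CD3E and PECAM1 were at 0 in DMSO.

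After Aza/TSA, the ligand genes JAG1 and DLL1 and the target HES1 were lower, the receptor genes and JAG2 differed from their DMSO level by at most 0.31 log2 units, MAML1 was somewhat higher and DTX1 was listed at a low level. Changes are given as log2((Aza/TSA FPKM + 1)/(DMSO FPKM + 1)), a scale that shrinks the change of weakly expressed genes, and a 2-fold difference on it is called higher or lower. Genes with 1 FPKM or above in at least 1 of the libraries are termed measured. Of the 10 genes 8 were measured, each at or above that level in both libraries, and DTX1 and HEY1 were not. Of the 8, 3 were called lower and 0 higher. Among all 13558 measured genes 5.21% were called lower and 16.1% higher, and the median change was 0.13, against −0.02 over the 8. After correction for transcript GC content, described below, the median was 0.01 over measured genes with a GC value and −0.88 over the 8.

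**Figure D1:**
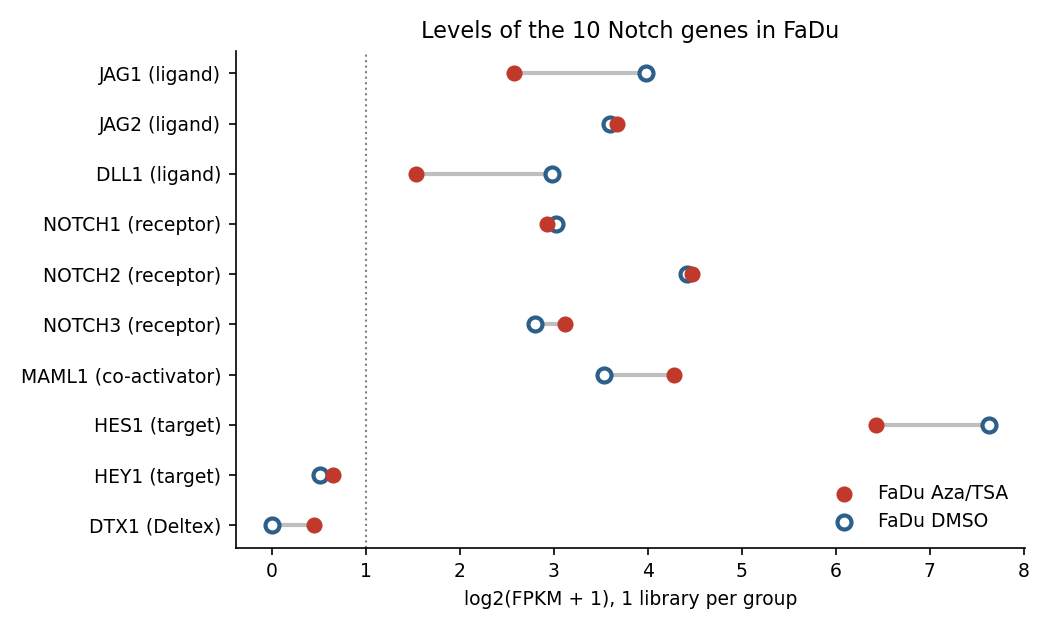
Level of each of the 10 genes on the log2(FPKM + 1) scale in the FaDu Aza/TSA library (filled red) and the FaDu DMSO library (open blue), joined by a grey line, with the dotted line at 1 FPKM. JAG1, DLL1 and HES1 lie well to the left after Aza/TSA, and DTX1 and HEY1 stay left of the dotted line in both libraries.

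Among the ligands, JAG1, a membrane ligand of the Jagged type, was at 4.95 FPKM in the Aza/TSA library, against 14.8 FPKM in the DMSO library. The Delta-type ligand DLL1 was at 1.90 FPKM after Aza/TSA, against 6.88 FPKM in DMSO. JAG2, the other Jagged ligand, was at 11.7 FPKM after Aza/TSA and 11.1 FPKM in DMSO. In FPKM, JAG1 and DLL1 were thus lower in the treated library and JAG2 was not. The log2 change was −1.41 for JAG1, −1.44 for DLL1 and 0.07 for JAG2, whose sign turned under upper-quartile scaling and GC correction, and on the plain FPKM ratio DMSO over Aza/TSA was 2.99 for JAG1 and 3.63 for DLL1. With the trend of the change with transcript GC content subtracted, JAG2 was at −0.82 and JAG1 at −1.57, so both were then negative. Among all measured genes ordered by uncorrected change, DLL1 stood at percentile 1.53 and JAG1 at 1.75. The order of the ligands also differed, with JAG2 at 2.37 times the FPKM of JAG1 after Aza/TSA and 0.753 times in DMSO.

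The remaining canonical ligands were at low levels. DLL4, best known from endothelium, was at 0.518 FPKM after Aza/TSA and 0.0926 in DMSO, and DLL3, a ligand that inhibits Notch within its own cell, was at 0.0647 and 0.0273. The 5 canonical ligands summed to 19.2 FPKM in the Aza/TSA library and 32.9 FPKM in the DMSO library, a ratio of 0.582. JAG2 supplied 61.2% of that sum after Aza/TSA and 33.8% in DMSO, and JAG1 25.8% and 44.9%.

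The receptor genes differed little between the libraries in FPKM. NOTCH2 was the highest at 21.2 FPKM after Aza/TSA and 20.3 FPKM in DMSO. NOTCH1, the receptor most often mutated in this cancer, was at 6.64 FPKM after Aza/TSA and 7.12 FPKM in DMSO. NOTCH3 was at 7.68 FPKM after Aza/TSA and 5.98 FPKM in DMSO. NOTCH3 and NOTCH1 lay close together in both libraries, NOTCH3 the higher after Aza/TSA and NOTCH1 the higher in DMSO. Their log2 changes were 0.06 for NOTCH2, −0.09 for NOTCH1 and 0.31 for NOTCH3, and the sign of each turned under at least 1 other scaling or correction. With the trend of the change with transcript GC content subtracted, NOTCH1 was at −0.94, NOTCH3 at −0.55 and NOTCH2 at −0.10. NOTCH4, the endothelial receptor, was at 0.0637 FPKM after Aza/TSA and 0.0502 in DMSO. The 4 receptors summed to 35.5 FPKM in the Aza/TSA library and 33.5 FPKM in the DMSO library. NOTCH2 has a near-identical partial copy, listed as NOTCH2NL at 6.90 FPKM after Aza/TSA and 6.03 in DMSO, and how reads were split between them is not given in the sources used here.

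**Figure D2:**
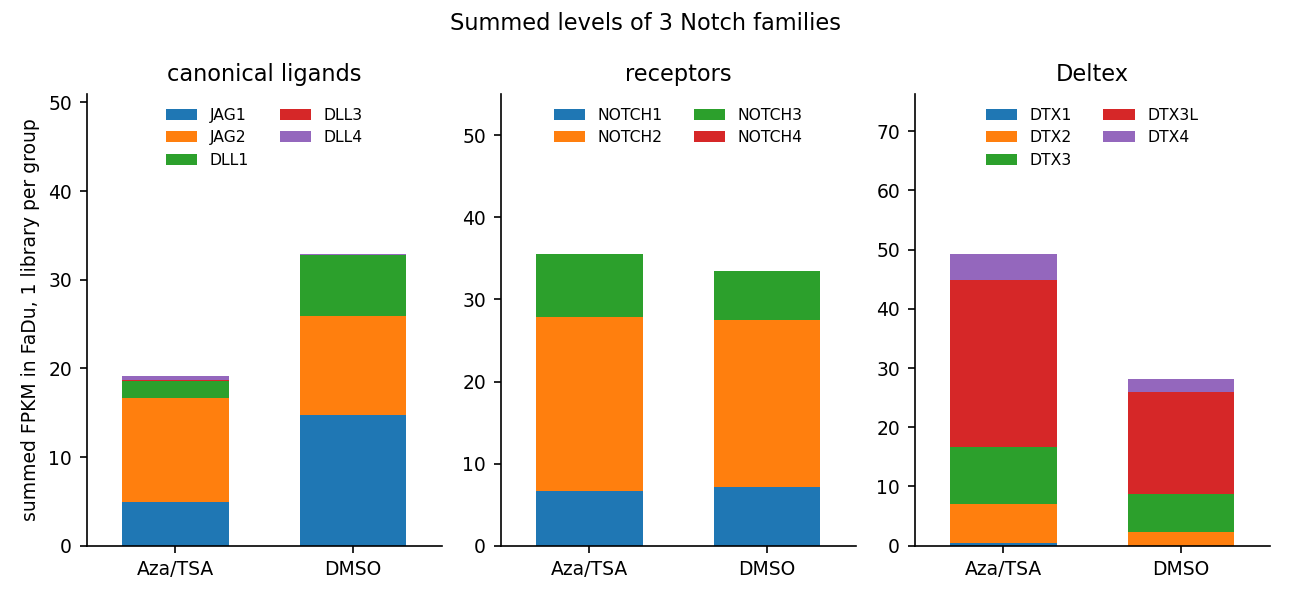
Summed FPKM of the canonical ligands, the receptors and the Deltex genes in FaDu, stacked by gene, with Aza/TSA on the left and DMSO on the right of each panel. The ligand sum is 19.2 FPKM after Aza/TSA against 32.9 in DMSO, with the JAG1 and DLL1 blocks smaller, while the receptor sums are 35.5 and 33.5 and the Deltex sums 49.3 and 28.1.

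In the nucleus, MAML1, the co-activator that bridges the Notch domain and RBPJ to histone acetyltransferases, was at 18.5 FPKM after Aza/TSA and 10.6 FPKM in DMSO. Its log2 change of 0.74 was under the 2-fold call. It was the widest upward difference of the 8 measured genes, at percentile 75.5 of all changes, so many measured genes lay further up. MAML1 made up 96.3% of the FPKM of the 3 Mastermind-like genes after Aza/TSA and 86.0% in DMSO, as MAML2 was at 0.479 and 1.23 FPKM. RBPJ itself was at 7.67 FPKM after Aza/TSA and 6.17 FPKM in DMSO.

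HES1, a basic helix-loop-helix repressor and the classic direct target of Notch, had the highest level of the 10 genes. It was at 85.0 FPKM in the Aza/TSA library, against 196.8 FPKM in the DMSO library. It stayed abundant when lower: its level stood at percentile 93.3 of measured genes after Aza/TSA and 97.7 in DMSO. Its log2 change was −1.20, at percentile 3.02 of all changes, and its plain FPKM ratio was 2.32 for DMSO over Aza/TSA. HEY1, a related repressor, was at 0.568 FPKM after Aza/TSA and 0.428 FPKM in DMSO, under 1 FPKM in both. HES1 supplied 86.5% of the summed FPKM of the 10 HES and HEY genes after Aza/TSA and 97.4% in DMSO, and the sum was 98.3 and 202 FPKM.

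Of the 9 other targets listed, 4 were measured and 0 were called in either direction, where 16.1% of all measured genes were called higher and 5.21% lower. HES4, a HES family member, was at 7.29 FPKM after Aza/TSA and 3.15 in DMSO, a log2 change of 1.00 that fell just short of the 2-fold call before rounding. HES6, which antagonises HES1, was at 2.46 and 0.770 FPKM (log2 change 0.97), and HEYL at 1.08 and 0.137 FPKM (0.87). HES6 and HEYL reached 1 FPKM only in the Aza/TSA library, so on the FPKM scale they could only be higher. Once the trend of the change with transcript GC content was subtracted, HES4 was at −0.24, HES6 at −0.08 and HEYL at 0.16. That trend was fitted on genes at 5 FPKM or above in each library. HES4, HES6 and HEYL were below that in DMSO, so the sign of their corrected values is uncertain. NRARP, a target that feeds back to inhibit Notch, was the measured target that moved with HES1, at 32.4 FPKM after Aza/TSA and 59.3 in DMSO (−0.85). It was named after its value was seen.

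DTX1 was listed at 0.367 FPKM in the Aza/TSA library and at 0 in the DMSO library. No fold is given against 0, and the number of reads behind the value is unknown. Of 7788 gene symbols listed at 0 in DMSO, 647 (8.31%) were at or above the DTX1 value after Aza/TSA, 370 (4.75%) reached 1 FPKM and 5461 (70.1%) were again listed at 0. DTX1 was thus among the symbols listed above 0 after Aza/TSA only, at a level below that of a measured gene.

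The other Deltex genes were present at higher levels in both libraries. DTX2 was at 6.60 FPKM after Aza/TSA and 2.34 in DMSO, and was the only one called higher (log2 change 1.18). DTX3L, which acts with the ADP-ribosyltransferase PARP9, was at 28.3 and 17.2 FPKM (0.69), DTX4 at 4.40 and 2.19 FPKM (0.76), and DTX3 at 9.63 and 6.36 FPKM. The 5 Deltex genes summed to 49.3 FPKM after Aza/TSA and 28.1 FPKM in DMSO, of which DTX1 supplied 0.744% and 0%. These sums are not corrected for GC content. With the GC trend subtracted, DTX3L was at 0.81, DTX2 at 0.36, DTX4 at 0.35 and DTX3 at −0.17, the opposite direction. DTX2 and DTX4 were under 5 FPKM in DMSO, so their corrected values are uncertain.

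The wider pathway was described by 81 further genes in 10 lists by role, of which 64 were measured. Of these, 7 were called higher and 0 lower, that is 10.9% higher against 16.1% of all measured genes, and the median log2 change was 0.43, against 0.13 over all measured genes. After the GC trend was subtracted, these medians were 0.10 and 0.01. Over all 81, measured or not, the median was 0.27, against 0 over all genes without a filter. The latter include 5461 symbols listed at 0 in both libraries, so this gap also reflects how many genes are expressed. Of the 64 genes, 8 passed the 1 FPKM minimum only through the Aza/TSA library (DNER, MFAP2, APH1B, NEURL, TLE4, HES6, HEYL and IVL), so on the FPKM scale they could only be higher, and MFAP2 and NEURL are among the 7 called. MAML2 passed only through the DMSO library. For receptor cleavage, 1 of 9 was higher: FURIN, the convertase that cuts the receptor on its way to the surface, was at 31.6 FPKM after Aza/TSA and 7.91 in DMSO (log2 change 1.87). The ADAM proteases that make the ligand-triggered cut were within 2-fold, ADAM10 at 22.3 and 38.4 FPKM and ADAM17 at 8.96 and 14.9.

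For ligand endocytosis, 2 of 6 were higher, against 16.1% of all measured genes. With so few genes per list, such counts are not read as enrichment. NEURL, the ubiquitin ligase now called NEURL1, was at 6.25 FPKM after Aza/TSA and 0.0579 in DMSO (log2 change 2.78), and the epsin EPN1 was at 36.9 and 17.5 FPKM (1.03). EPN1 was under 2-fold with a pseudocount of 5 (0.90), TPM scaling (0.98), upper-quartile scaling (0.92) and the GC trend subtracted (0.66). MIB2 was at 3.80 and 1.63 FPKM, within the 2-fold limit on this scale (0.87). It passed that limit with a pseudocount of 0.1 (1.17) and was at −0.19 with the GC trend subtracted. For receptor glycosylation, 1 of 8 measured was higher, the fringe gene RFNG at 24.4 FPKM after Aza/TSA and 10.5 in DMSO (1.15). The fringe genes LFNG and MFNG were at 2.09 and 1.19 FPKM (0.50) and at 7.86 and 5.25 FPKM (0.50). With the GC trend subtracted, RFNG was at 0.15 and no longer called, MFNG was at −0.23, the opposite direction, and LFNG was at −0.35. LFNG and MIB2 lay below the 5 FPKM minimum used to fit that trend, so the sign of their corrected values is uncertain.

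Among the other ligands 1 of 4 measured was higher, against 16.1% of all measured genes. It was MFAP2, a microfibril protein reported to bind Notch, at 2.53 FPKM after Aza/TSA and 0.136 in DMSO (log2 change 1.63). The noncanonical ligands DNER, at 1.34 and 0.233 FPKM (0.92), and CNTN1, at 1.79 and 2.97 FPKM (−0.51), were not called. Of 11 Deltex and turnover genes, DTX2 was the call named above, and of 1 other receptor, NOTCH4, none was measured. In the nuclear complex 0 of 7 measured were called. Its acetyltransferase genes were EP300 at 52.9 and 34.0 FPKM (0.62), CREBBP at 24.8 and 14.6 (0.73) and KAT2A at 26.9 and 15.1 (0.79). With the GC trend subtracted, EP300 was at 0.30, CREBBP at 0.18 and KAT2A at 0.05. Among the corepressors given here 0 of 12 measured were called. Of the Groucho family, TLE1 was at 4.17 FPKM after Aza/TSA and 1.63 in DMSO (0.97), AES, now TLE5, at 90.5 and 48.6 FPKM (0.88) and TLE4 at 1.00 and 0.183 FPKM (0.76).

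Of 5 keratinocyte genes linked to Notch, 3 were measured and 1 was higher, against 16.1% of all measured genes. CDKN1A, which encodes the cell cycle inhibitor p21, was at 66.1 FPKM after Aza/TSA and 16.2 in DMSO (log2 change 1.96). The cornified envelope gene IVL was at 1.11 and 0.185 FPKM (0.83) and the suprabasal keratin KRT10 at 22.8 and 19.3 FPKM (0.23). Squamous markers also differed between the libraries: TP63, the transcription factor of basal cells, was at 23.2 FPKM after Aza/TSA and 73.7 in DMSO, KRT5 at 226.0 and 686.5, and KRT14 at 147 and 49.8. Their part in the lower JAG1, DLL1 and HES1 was not tested. In RNA from a whole culture, fewer cells expressing a gene and less RNA per cell cannot be told apart.

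**Figure D3:**
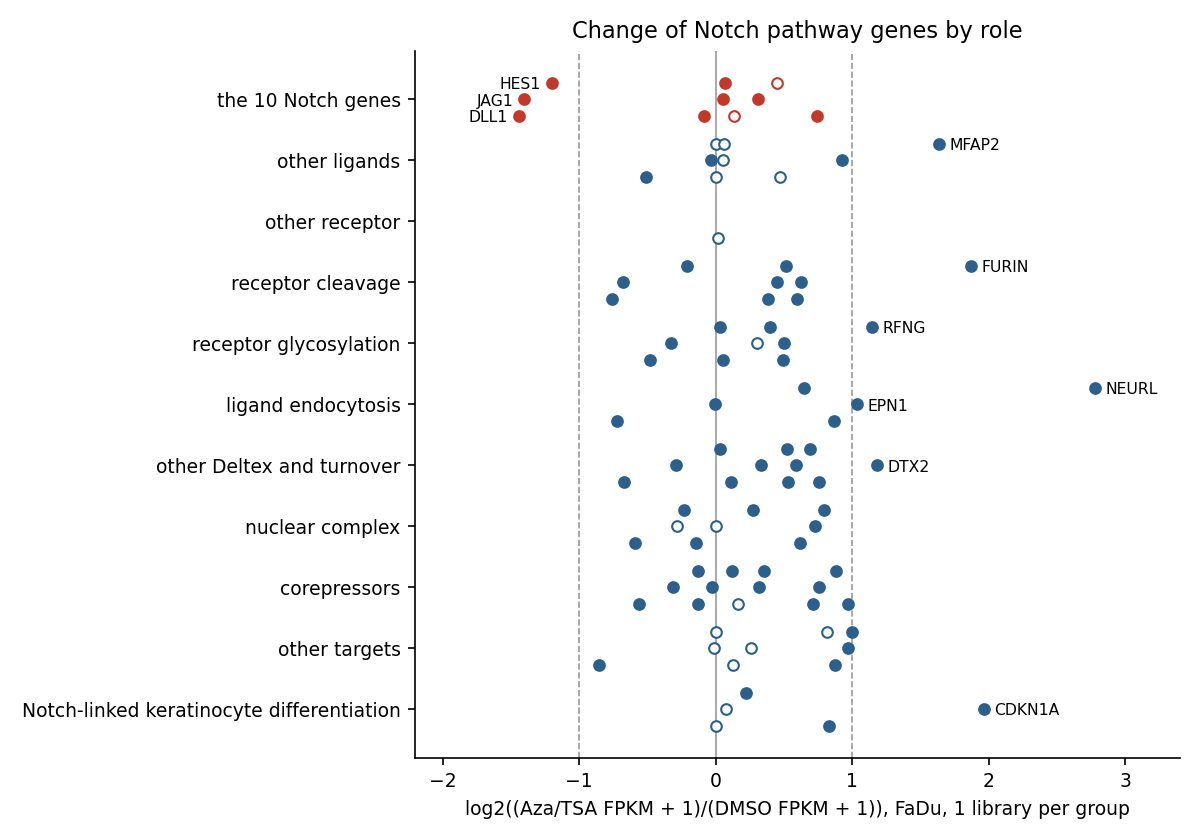
Log2 change, Aza/TSA over DMSO, of the 10 Notch genes (red) and 81 further pathway genes (blue) by role, with filled points for genes at 1 FPKM or more in either library, open points for the rest and dashed lines at 2-fold. The 3 points left of the lower dashed line are JAG1, DLL1 and HES1, and the 7 named points right of the upper line belong to other pathway genes.

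Changes also went with transcript GC content (Spearman correlation 0.67 over 7127 genes with 5 FPKM or above in each library, all from the same 2 libraries). The values of the 10 genes were therefore also read after this trend was subtracted. It was subtracted in full from weaker genes too, whose change the scale shrinks. For GC-rich genes under 5 FPKM in either library, DLL1, DTX2, NEURL and MFAP2 among them, the corrected value can therefore be too low. JAG1 was then at −1.57, DLL1 at −2.12 and HES1 at −1.39, all still called lower, against 4.34% of 12526 genes. NOTCH1 was at −0.94, JAG2 at −0.82 and NOTCH3 at −0.55, so that these GC-rich transcripts lay below the trend, and NOTCH2 was at −0.10. MAML1 was at 0.21. NRARP, at −1.87, was called lower after the correction. Of the 7 pathway genes called higher, 3 were still called, FURIN at 1.06, NEURL at 1.88 and CDKN1A, against 7.52% of genes, while DTX2 was at 0.36 and MFAP2 at 0.90. The corrected value of DTX1 is not informative, since a gene listed at 0 in DMSO cannot be lower after Aza/TSA.

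**Figure D4:**
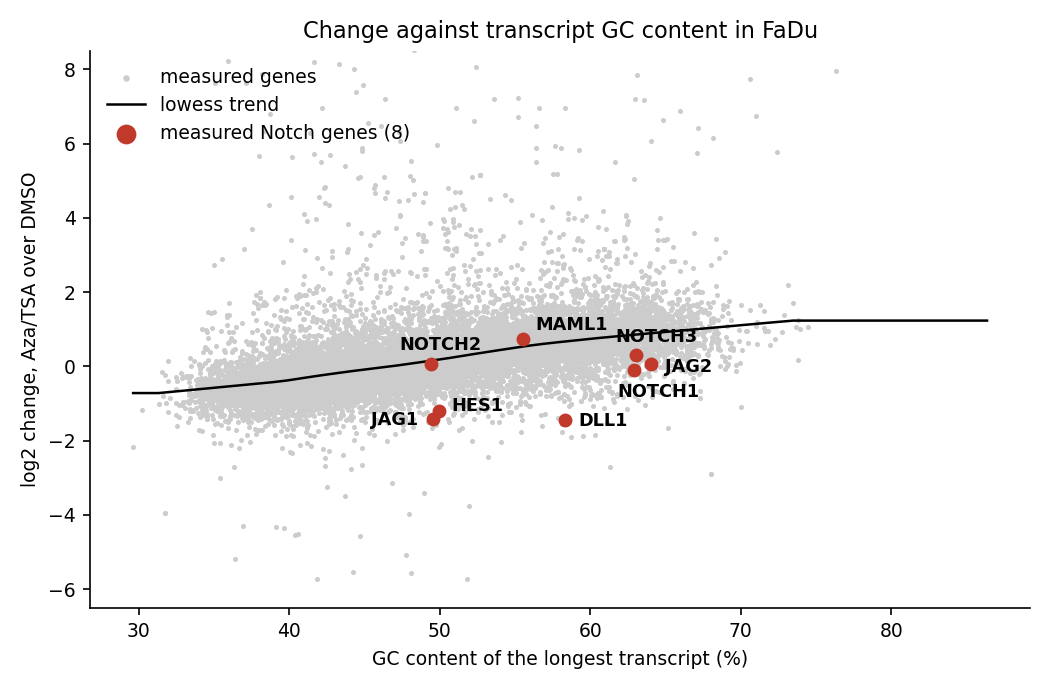
Log2 change, Aza/TSA over DMSO, against the GC content of the longest transcript for 12526 measured genes (grey, 25 of them outside the axis range), with the lowess trend (black line) and the 8 measured Notch genes (red). JAG1, HES1 and DLL1 lie far below the trend, NOTCH1, NOTCH3 and JAG2 moderately below it, and NOTCH2 and MAML1 near it.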

How the data were processed

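Messenger RNA of FaDu and UMSCC47 cells was sequenced from stranded libraries, 1 per group and 4 in all. The labels gave each library its group. The deposited table gives FPKM per gene symbol and library, per the file headers. Per the submitters' processing notes, the authors worked on hg19 with TopHat 1.3.2 and with Cufflinks 2.0.2. Which annotation, filters and scaling they used is not given in the sources used here. FPKM hold no read counts, so depth is unknown and no interval is given.

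Here 45 repeated rows were summed, and changes were computed with a pseudocount of 1 and read at 2-fold over genes at 1 FPKM or more in either library. No test was possible with 1 library per group. GC content and length came from the longest GENCODE 29 transcript (92.4% of measured genes, all 91 Notch genes), and trends were fitted by lowess (statsmodels 0.14.6, fraction 0.3). The GC correction was tried on simulated data, scored on well expressed genes only. It was not tried on weakly expressed genes, and the length correction was not tried on simulated data. Genes named are the 10, the up to 3 measured genes with the widest change in each list, and others where stated. Cell type markers, NOTCH2NL, RBPJ, MAML2, DTX3, DLL3, DLL4 and NOTCH4 values are given beside them. The 10 genes and the lists were chosen with earlier results of these data known, and a few listed genes are not reported here. Other settings were pseudocounts of 0.1 and 5, no minimum, a minimum of 5 FPKM, TPM and upper-quartile scaling, the highest row per symbol, and GC or length correction.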

Additional observations from a re-analysis of the deposited data

How the results depend on the processing

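Of the measured Notch genes 0 were called higher under every setting tried, and 3 were called lower (JAG1, DLL1 and HES1) except with a pseudocount of 5, which left 1, HES1, with JAG1 at −0.99 and DLL1 at −0.78. With that pseudocount 1.87% of all measured genes were called lower, against 5.21% at the reported setting. Of the other pathway genes 7 of 64 were called higher, against 16 with a pseudocount of 0.1, 3 with a pseudocount of 5, 14 of 69 with TPM scaling and 3 with GC correction. Over all genes tested, the shares called higher were 16.1%, 21.7%, 6.59%, 17.9% and 7.52% in that order. The count called lower was 0, against 1 with a pseudocount of 0.1 (MAML2), 1 with GC correction and 1 with length correction (NRARP in both). Over all genes tested, the shares called lower were 5.21%, 8.72%, 4.34% and 6.16% in that order. No named gene called at the reported setting changed sign. HES4, HES6, MIB2, LFNG, MFNG and KRT10, uncalled there, were negative with GC correction. Of these, HES4, HES6 and MIB2 were nonetheless called higher with a pseudocount of 0.1. DNER, TLE1, TLE4, HEYL and IVL, also uncalled at the reported setting, were called higher with a pseudocount of 0.1 and with TPM scaling. Among uncalled genes of the 10, NOTCH1, NOTCH2, NOTCH3, JAG2, HEY1 and DTX1 changed sign under 1 to 3 settings. DTX1 ranged from −0.43 (GC correction) to 2.22 (pseudocount 0.1). The upper value rests on its DMSO value of 0. The lower one comes from the subtracted trend, as DTX1 could not be lower than 0. Upper-quartile scaling moved the median of all genes to 0.02, against 0.13 without it. No paired analysis was possible because each group has 1 library, and for the same reason no replicate could be left out. Depth is unknown, so values under 1 FPKM, DTX1 and HEY1 among them, carry no stated precision.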
